A study of Homo sapiens with 4 samples.

Results

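The genes described here encode the aminoacyl-tRNA synthetases of the cytosol and of mitochondria, together with AIMP1 and AIMP2, a pair of scaffold proteins that hold several of these enzymes in one complex. They were chosen by symbol: a one-letter amino acid code followed by ARS, with or without a final digit, and in addition EPRS, FARSA, FARSB, QARS, PARS2, AIMP1 and AIMP2. This gave 37 of the 18375 genes of the deposited table, namely 18 cytosolic enzymes or subunits, 2 genes (GARS and KARS) that make both the cytosolic and the mitochondrial enzyme, 15 mitochondrial enzymes and the 2 scaffold genes. Symbols are those of the table, and RefSeq lists several under a newer form with a final digit, such as AARS1 for AARS. The choice left out CARS2 and FARS2, the mitochondrial enzymes for cysteine and phenylalanine. Both fell, and on the scale used here further than any of the 37 genes, CARS2 from 3282 and 3204 to 1337 and 1447 normalized counts (log2 fold change -1.22) and FARS2 from 1062 and 956 to 447 and 395 (log2 fold change -1.26). With the median of their chromosomal neighbours subtracted, a setting described below, CARS2 stood at -0.39 and FARS2 at -0.56, closer to 0 than CARS, YARS and GARS. The counts over mitochondrial enzymes below thus do not cover every mitochondrial synthetase.

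A synthetase joins one amino acid to its tRNA, the step that fixes the meaning of the genetic code. The enzymes fall into a pair of structural families, class I and class II, and mitochondria mostly use their own nuclear-encoded set. In animal cells several cytosolic enzymes sit in a multisynthetase complex, and the others act as free enzymes. When charged tRNA runs short, the kinase GCN2 phosphorylates the initiation factor eIF2, and the transcription factor ATF4 then raises genes of amino acid supply, many cytosolic synthetases among them.

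RD is an established line of fusion-negative rhabdomyosarcoma, a tumour of skeletal muscle lineage. The study compared 2 libraries of parental cells, labelled untreated, with 2 libraries of vincristine-resistant cells, and every library is labelled WT in genotype and was grown in one medium. Resistance to vincristine, a vinca alkaloid that binds tubulin, began with a dose of 1 to 1.5 nM that killed about 80 to 90% of cells, and doses then rose in steps of 10 to 20% over 9 to 12 months until the half-maximal inhibitory concentration was at least 100-fold higher. The labels do not say whether the resistant cells are a clone or a pool, whether drug was present at harvest, or whether replicates came from separate cultures, so the p-values rest on a spread between libraries that may be technical. Within a group the libraries were not duplicates of each other: the chi-square between replicates, per gene, was 1.61 for parental and 4.00 for resistant libraries. Recovered reads ranged from 58861281 to 67690557 per library. Of 12 skeletal muscle markers, 10 were in the table and 9 rose, with desmin (DES) at 18253 and 18247 in parental and 49390 and 51167 normalized counts in resistant libraries. That is 90% higher, against 32.7% of all genes. MYOD1 did not pass, with 16936 and 16241 against 15213 and 16685 (log2 fold change -0.06), and MYF5 and MYF6 were not in the table. Of the defining leukocyte and endothelial markers, CD45 (PTPRC), CD3E, PECAM1, CDH5 and VWF were not in the table. The leukocyte gene LYZ was in it and rose, from 5.80 and 15.9 to 29.2 and 21.0 normalized counts (log2 fold change 1.27, limma adjusted p = 0.0115). The epithelial markers EPCAM, CDH1 and KRT14 had 6.77 to 87.6 normalized counts, and of them CDH1 rose, from 6.77 and 10.9 to 26.0 and 16.2 (1.16, limma adjusted p = 0.0190). Of the neuron markers SNAP25 rose from 52.2 and 46.7 to 216 and 228 (2.15, limma adjusted p = 4.79e-12) and SYT1 fell (-0.14, limma adjusted p = 0.0150). The part of these markers in the results below was not tested.

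Values below are normalized counts, that is, reads divided by one size factor per library, and pairs of values are given in the order replicate 1, replicate 2. Fold changes are resistant over parental on the log2(value + 1) scale with their standard error (SE), and n is 2 libraries in each group throughout. A gene is said to rise or fall where limma gave a Benjamini-Hochberg adjusted p below 0.05 over all 18330 genes tested. All 37 genes passed the filter on low values, the lowest library value among them being 606 (PARS2). In bulk RNA a lower value can come from fewer cells that express a gene or from less RNA in each, and these cannot be told apart.

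Across the 37 genes, synthetase expression moved in both directions and by small amounts. In resistant cells 15 genes rose, 12 fell and 10 did not pass, and the log2 fold changes ran from -0.95 (CARS) to 0.58 (EARS2). The share called, 73%, compares with 66.9% of all genes. The share that rose was 40.5% against 32.7% of all genes, and the share that fell was 32.4% against 34.2%. The median log2 fold change was 0.00 in the 37 genes and 0.00 in all genes tested. The parental and resistant values did not overlap in 30 of the 37 genes (81.1%), against 82.1% of all genes. When a change above 1.2-fold was required, 8 genes passed limma's treat test (21.6%, against 37.1% of all genes): CARS, YARS, GARS, FARSA and PARS2 were lower, and EARS2, QARS and VARS2 were higher. Those 8 genes also kept their calls in every alternative setting tried. With its own adjusted p under 0.05, the authors' deposited table has 14 of the genes up and 11 down, against 56.6% of its genes called in either direction, and differs from the calls here for SARS2 and WARS2 alone.

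**Figure D1:**
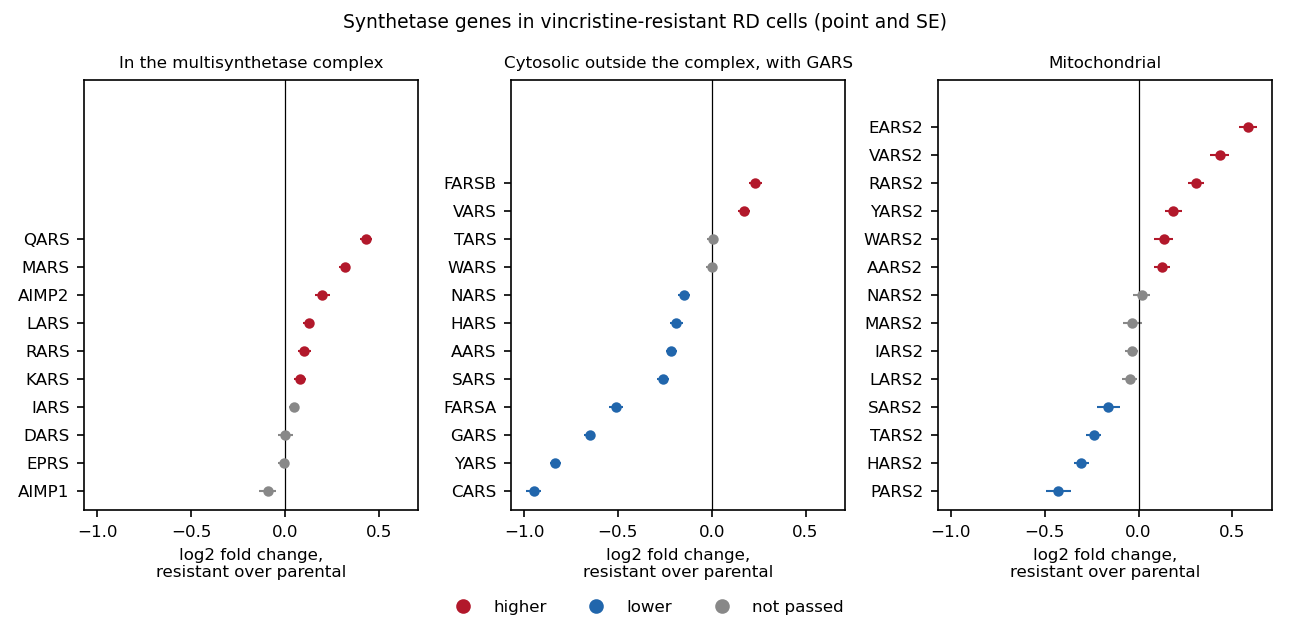
Log2 fold change of the synthetase and AIMP genes reported by name, resistant over parental RD cells (x axis; point, with a bar for the SE, n = 2 libraries per group), in genes of the multisynthetase complex, other cytosolic enzymes with GARS, and mitochondrial enzymes; red is higher, blue lower and grey not passed in limma. In the complex 6 of 10 genes are red and none blue, and outside it 8 of 12 are blue.

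Matches to the ATF4 response element are shown first. They tell which of the 30 members with a RefSeq promoter carry its letters next to a start site. The other 7 members, YARS, LARS, DARS, VARS, VARS2 and AARS2 among them, had no promoter sequence in the sources used here and were not searched. A promoter here ran from 250 bases before to 50 after the start (GRCh38.p14). The core TGATGNAA, searched on both strands, was found in 8 of the 30 members, against 3.62% of all 35116 promoters of 300 bases. A member counted if any of its promoters matched, whereas the share is taken over single promoters. For every motif searched here, the member count and the share are thus not on the same basis. The stricter form TGATGCAA, contained in the first, was found in 6 of the 30, against 0.866% of promoters. Each 30-base window is printed in the direction of the gene with the match in capitals; TTGCATCA and TTTCATCA are matches on the other strand.
AARS: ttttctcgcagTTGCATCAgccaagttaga
CARS: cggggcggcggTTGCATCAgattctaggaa
GARS: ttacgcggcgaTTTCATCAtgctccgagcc
NARS: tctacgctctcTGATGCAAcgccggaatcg
IARS: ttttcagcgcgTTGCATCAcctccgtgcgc
TARS: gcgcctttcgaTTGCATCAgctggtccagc
MARS: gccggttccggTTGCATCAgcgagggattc
YARS2: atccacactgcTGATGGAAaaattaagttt
The windows lie at chr16:70289675-70289704 for AARS, with 179 bases between match and start, chr11:3057407-3057436 for CARS, across the start, chr7:30594834-30594863 for GARS, with 25 bases between, and chr18:57621804-57621833 for NARS, after the start. Those of IARS (chr9:92293692-92293721, 5 bases before the start), TARS (chr5:33440956-33440985, after it), MARS (chr12:57488053-57488082, across it) and YARS2 (chr12:32756076-32756105, 189 bases before it) complete the set. Genes with a match went in both directions: AARS, CARS, GARS and NARS fell, MARS and YARS2 rose, and IARS and TARS did not pass. A match is a description of the letters and not a mapped binding site. The E-box CACGTG, the core bound by MYC and related factors and the same on both strands, stood in the promoters of AIMP2, EARS2, IARS and MARS2, 4 of 30 members against 7.26% of all promoters, and AIMP2 and EARS2 of these rose.

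Among the enzymes outside the multisynthetase complex, counted with GARS, 8 of 12 genes fell, 2 rose and 2 did not pass, with a median log2 fold change of -0.20. That is 66.7% lower and 16.7% higher, where 34.2% of all genes were lower and 32.7% higher. The largest decrease was that of CARS, the cytosolic cysteinyl-tRNA synthetase. It had 5903 and 5549 normalized counts in parental libraries and 2885 and 3051 in resistant libraries. Every resistant library lay well below every parental one, and the log2 fold change was -0.95 (SE 0.04, limma adjusted p = 2.97e-17). YARS, the tyrosyl-tRNA synthetase, had 14310 and 14566 against 8075 and 8129, a log2 fold change of -0.83 (SE 0.03, limma adjusted p = 1.04e-18). GARS, the glycyl-tRNA synthetase of cytosol and mitochondria, had 28418 and 27913 against 18170 and 17701, a log2 fold change of -0.65 (SE 0.03, limma adjusted p = 4.42e-17). Neither gene's groups overlapped, and GARS was per kilobase of transcript the most abundant synthetase gene of parental cells, at 10693 normalized counts per kilobase. In GRCh38 (GENCODE 29), CARS (ENSG00000110619) lies at chr11:3000922-3057613, YARS (ENSG00000134684) at chr1:32775237-32818153 and GARS (ENSG00000106105) at chr7:30594681-30634033.

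Smaller decreases were shared by 4 more free enzymes. SARS, the seryl-tRNA synthetase, had 13740 and 13782 against 11444 and 11548 normalized counts, without overlap, a log2 fold change of -0.26 (SE 0.03, limma adjusted p = 1.86e-08). AARS (alanine, -0.22), HARS (histidine, -0.19) and NARS (asparagine, -0.15) also fell. VARS, the valyl-tRNA synthetase, which binds elongation factor 1 rather than the complex, rose by 0.17 (SE 0.03), from 12743 and 12565 to 13923 and 14627, and by 0.31 after a correction for GC content and length. The falls of SARS, AARS, HARS and NARS and the rise of VARS did not pass with edgeR's dispersion fixed at 0.01 or against a 1.2-fold change.

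Phenylalanyl-tRNA synthetase is built from alpha and beta subunits, and their genes moved in opposite directions. FARSA, which encodes the catalytic alpha subunit, had 14252 and 14042 normalized counts in parental and 9441 and 10436 in resistant libraries, a log2 fold change of -0.51 (SE 0.04, limma adjusted p = 1.51e-12). FARSB, which encodes the beta subunit, had 8814 and 8978 against 10801 and 10114, a log2 fold change of 0.23 (SE 0.03, limma adjusted p = 1.06e-06). The ratio of FARSA to FARSB normalized counts was 1.62 and 1.56 in parental and 0.874 and 1.03 in resistant libraries, so the groups did not overlap (exact permutation test, two-sided p = 0.333, the smallest that 2 against 2 libraries can give). Per kilobase, FARSA stayed the more abundant of the pair, at 6878 against 2641 in parental and 4832 against 3104 in resistant cells. With edgeR's dispersion fixed at 0.01, or a change above 1.2-fold required, FARSB did not pass.

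**Figure D2:**
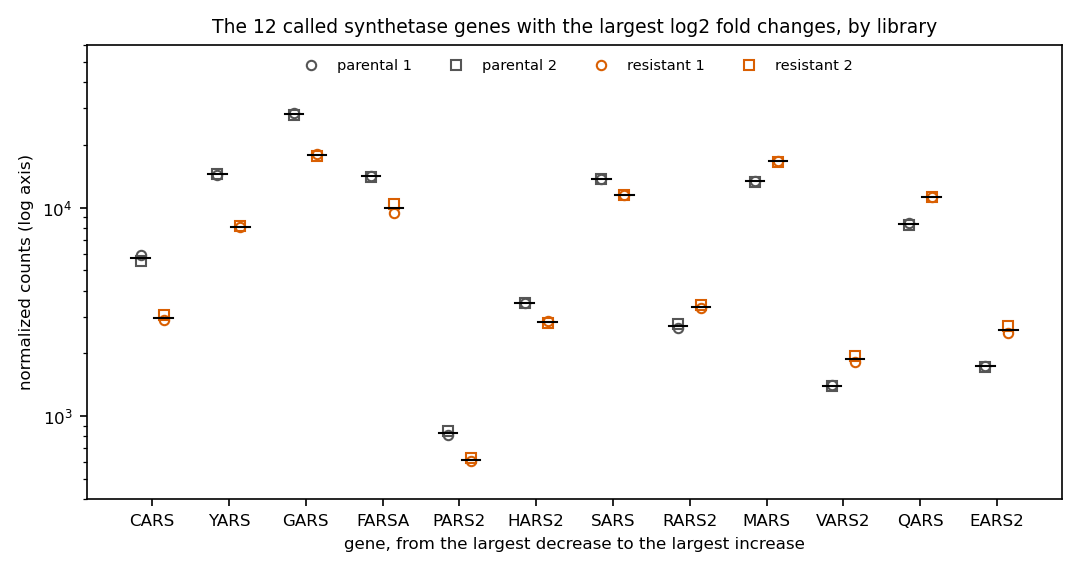
Normalized counts per library (y axis, log scale) of the 12 called genes with the largest absolute log2 fold changes, ordered from the largest decrease to the largest increase; circles are replicate 1, squares replicate 2, grey parental, orange resistant, and short lines the group means (n = 2). The groups do not overlap for any of these genes, and CARS, YARS and GARS show the widest gaps.

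In the multisynthetase complex 6 of 10 genes rose, none fell and 4 failed the test, with a median log2 fold change of 0.09. The share called was 60%, below the 66.9% of all genes, and the share higher was 60% against 32.7%. The count of 0 lower genes held with limma, edgeR and DESeq2, and at an unadjusted p below 0.05 it was 1 gene (AIMP1) with limma and with edgeR and 0 with DESeq2. QARS, the glutaminyl-tRNA synthetase, had the largest increase, with 8453 and 8224 normalized counts in parental and 11243 and 11274 in resistant libraries. Its groups did not overlap, and its log2 fold change was 0.43 (SE 0.03, limma adjusted p = 2.40e-12). MARS, the methionyl-tRNA synthetase, which serves both initiation and elongation, rose from 13469 and 13291 to 16700 and 16658, by 0.32 (SE 0.03, limma adjusted p = 2.67e-10). MARS shares 7.39% of its exonic bases with ARHGAP9 and 5.05% with DDIT3 on the opposite strand, and the strand setting of the counting is not given in the sources used here. QARS (ENSG00000172053) lies at chr3:49095932-49105135 and MARS (ENSG00000166986) at chr12:57475445-57517569.

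LARS, the leucyl-tRNA synthetase and a leucine sensor of the mTORC1 pathway, rose by 0.13 (SE 0.03), from 13160 and 13048 to 14337 and 14281. RARS (arginine) had 8316 and 8214 against 9164 and 8608, and KARS (lysine, in cytosol and mitochondria) 15045 and 15402 against 15815 and 16371, log2 fold changes of 0.10 and 0.08 (SE 0.03 each). Both of these calls were lost without single libraries. Without parental replicate 1 or 2 the limma adjusted p was 0.0761 and 0.139 for RARS and 0.311 and 0.109 for KARS, and without resistant replicate 1 it was 0.0528 for RARS. A correction for GC content and length removed them as well. In such fits 1 library is left in a group and is taken to vary like the other group.

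The remaining enzymes of the complex lay close to equality. EPRS, which joins the glutamyl and prolyl enzymes in one protein, had 13838 and 14115 against 14204 and 13620 normalized counts, with a 95% interval of the log2 fold change from -0.07 to 0.06. DARS (aspartate) had 5225 and 5458 against 5523 and 5179, with an interval from -0.08 to 0.08. Parental and resistant values overlapped in both genes. With the neighbour median subtracted, DARS passed as higher (0.09, limma adjusted p = 0.0478) and EPRS as lower (-1.28). IARS, the isoleucyl-tRNA synthetase, had 26498 and 26347 against 27382 and 27195. Its groups did not overlap, but the log2 fold change of 0.05 (SE 0.03, limma adjusted p = 0.137) did not pass. It passed without resistant replicate 2 (limma adjusted p = 0.0183), with libraries scaled to equal totals (limma adjusted p = 0.0113) and with the neighbour median subtracted (0.07, limma adjusted p = 0.0341).

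The scaffold genes differed from each other in their calls. AIMP2, the core scaffold of the complex, had 3149 and 3180 normalized counts against 3641 and 3627 and rose by 0.20 (SE 0.04, limma adjusted p = 6.47e-05). AIMP1, also the precursor of a secreted cytokine, had 2926 and 2946 against 2845 and 2665 and did not pass (-0.09, SE 0.04, limma adjusted p = 0.0614). It passed as lower without resistant replicate 1 (limma adjusted p = 0.00115) and after the GC and length correction (limma adjusted p = 0.00271), and as higher with the neighbour median subtracted (0.12, limma adjusted p = 0.0132). The difference between the 2 scaffold genes was not tested. EIF2AK1 covers 28.9% of the exonic bases of AIMP2 and TBCK covers 11.6% of those of AIMP1, each from the opposite strand, so both values are uncertain. The third scaffold, EEF1E1, which is no member, fell from 884 and 902 to 602 and 543 (-0.64, SE 0.07).

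Summed over genes, the complex was higher and the free enzymes were lower in resistant libraries. The 10 complex genes took 0.168 and 0.169% of all normalized counts in parental and 0.190 and 0.186% in resistant libraries. The 12 other cytosolic genes took 0.251 and 0.251% in parental and 0.214 and 0.214% in resistant libraries. In mean sums the complex was 9.09% higher and the other cytosolic genes fell by 16.5%, and in neither sum did the groups overlap. All 37 genes together took 0.485 and 0.484% in parental and 0.474 and 0.470% in resistant libraries. With 2 libraries per group no permutation test of such sums can go below 0.333, and the sums give most weight to abundant genes such as GARS and IARS.

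The structural families can be read from the same genes. Of 18 class I genes 10 rose, 2 (CARS and YARS) fell and 6 stayed short of the threshold, with a median log2 fold change of 0.12. Of 17 class II genes 4 (KARS, FARSB and AARS2 among them) rose, 10 fell and 3 (DARS, TARS and NARS2) did not pass (median -0.16). Against 66.9% of all genes, 66.7% of class I and 82.4% of class II genes were called, with 55.6% and 23.5% higher and 11.1% and 58.8% lower. Class and complex overlap, since most enzymes of the complex are class I, and the difference between the classes was not tested.

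The free enzymes that did not pass were WARS and TARS. WARS, the tryptophanyl-tRNA synthetase, is known as an interferon-induced gene. It had 13894 and 13535 normalized counts in parental and 13709 and 13725 in resistant libraries, a log2 fold change of 0.00 with a 95% interval from -0.06 to 0.06. Of 7 measured interferon response genes in the same libraries, 6 rose, among them GBP1 from 309 and 292 to 1043 and 1028 (1.78, SE 0.08) and IFIT1 by 1.46 (SE 0.03; 0.70 with its neighbour median subtracted), while IRF1 did not pass (-0.05, SE 0.05). The share of these interferon response genes that rose, 85.7%, compares with 32.7% of all genes. The interval of WARS thus spanned 0 in libraries where most of these genes were higher. TARS, the threonyl-tRNA synthetase, had 13867 and 14054 against 13877 and 14163, with an interval from -0.06 to 0.07, and its groups overlapped as did those of WARS. With the neighbour median subtracted, TARS passed as lower (-0.19, limma adjusted p = 6.44e-06) and WARS did not pass (0.02, limma adjusted p = 0.680).

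Of 15 mitochondrial enzymes 7 rose, 4 fell and 4 did not pass, with a median log2 fold change of 0.02. The share called, 73.3%, was near the 66.9% of all genes, with 46.7% higher and 26.7% lower against 32.7% and 34.2%. EARS2, which charges mitochondrial tRNA with glutamate, showed the largest increase of all 37 genes. It had 1737 and 1730 normalized counts in parental and 2502 and 2696 in resistant libraries, without overlap, a log2 fold change of 0.58 (SE 0.05, limma adjusted p = 2.13e-11). Mitochondria make their glutaminyl-tRNA from a glutamate-charged precursor of EARS2 through an amidotransferase of the subunits GATB, GATC and QRSL1. GATB fell from 2059 and 2038 to 1314 and 1299 (-0.65, SE 0.05). GATC rose by 0.35 (SE 0.04; 0.05 with its neighbour median subtracted, limma adjusted p = 0.294) and QRSL1 fell by 0.16 on the log2 scale (SE 0.04), so the 3 subunits did not move one way; these 2 genes were chosen after seeing their values. EARS2 (ENSG00000103356) lies at chr16:23522014-23557731, and UBFD1 covers 6.46% of its exonic bases from the opposite strand.

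VARS2, the mitochondrial valyl-tRNA synthetase, had 1409 and 1391 normalized counts against 1827 and 1953, a log2 fold change of 0.43 (SE 0.05, limma adjusted p = 2.70e-08). It shares 22.0% of its exonic bases with GTF2H4 on the same strand, so its count is uncertain. RARS2 (arginine) had 2643 and 2765 against 3285 and 3401, a log2 fold change of 0.31 (SE 0.04, limma adjusted p = 3.61e-07). The groups of VARS2 and RARS2 did not overlap. YARS2 (tyrosine), with 2397 and 2460 against 2690 and 2837, rose by 0.19 (SE 0.04).

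AARS2 (alanine) and WARS2 (tryptophan) rose by 0.12 (SE 0.04) and 0.13 (SE 0.05), but these calls were less secure. AARS2 did not pass without parental replicate 1 (limma adjusted p = 0.180), nor WARS2 without parental replicate 2 (limma adjusted p = 0.284) or under DESeq2 (DESeq2 adjusted p = 0.0919). The GC and length correction removed the call of WARS2 (limma adjusted p = 0.0588) and moved AARS2 to 0.23. SARS2 (serine) had 967 and 1024 against 891 and 888 normalized counts and fell by 0.16 on the log2 scale (SE 0.06, limma adjusted p = 0.0220). Its call did not hold when parental replicate 2 was left out (limma adjusted p = 0.249) or when DESeq2 was used (DESeq2 adjusted p = 0.114), nor with equal totals (limma adjusted p = 0.0671) or the GC and length correction (-0.04, limma adjusted p = 0.564). AC011455.2 shares 46.2% of its exonic bases on the same strand.

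PARS2, the mitochondrial prolyl-tRNA synthetase, fell the most among these enzymes. It had 810 and 848 normalized counts in parental and 606 and 627 in resistant libraries, without overlap, a log2 fold change of -0.43 (SE 0.07, limma adjusted p = 4.05e-06). HARS2 (histidine) had 3505 and 3496 against 2861 and 2809, a log2 fold change of -0.30 (SE 0.04, limma adjusted p = 1.81e-07), and TARS2 (threonine) fell by 0.24 on the log2 scale (SE 0.04). HARS and HARS2 start back to back on chromosome 5, with 84 bases between their RefSeq starts, of which 59.5% are G or C. HARS had 7731 and 7739 against 6708 and 6872, so both genes of this shared stretch fell. GENCODE exons of HARS and HARS2 overlap over 437 bases, 11.7% of the exonic bases of HARS2, so without a known strand setting their reads cannot be told apart there.

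The 4 mitochondrial enzymes that did not pass were LARS2, IARS2, MARS2 and NARS2. LARS2 (leucine) had 3796 and 3633 normalized counts against 3627 and 3557, a 95% interval of the log2 fold change from -0.13 to 0.03. IARS2 (isoleucine) had 8778 and 8855 against 8808 and 8391, with an interval from -0.10 to 0.03. The groups of LARS2 lay side by side without overlap and those of IARS2 overlapped, and IARS2 passed as lower without resistant replicate 1 (limma adjusted p = 0.0158). MARS2 (methionine) had 1490 and 1520 against 1415 and 1530, and NARS2 (asparagine) 1935 and 1958 against 2026 and 1912, with intervals from -0.14 to 0.08 and from -0.08 to 0.11. Both overlapped between groups. With the neighbour median subtracted, LARS2 (-0.31, limma adjusted p = 2.55e-07), MARS2 (-0.22, limma adjusted p = 0.00114) and IARS2 (-1.31) passed as lower. NARS2 did not pass in that setting (0.08, limma adjusted p = 0.142).

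Per kilobase of transcript, most cytosolic genes were more abundant than the mitochondrial ones. In parental cells the cytosolic genes ran from 2076 (CARS) to 7312 (SARS) normalized counts per kilobase, with a median of 3544. The mitochondrial genes ran from 344 (VARS2) to 2477 (IARS2), with a median of 773. The ranges overlapped, since IARS2 stood above CARS, and in resistant cells CARS stood at 1076 and IARS2 at 2416 per kilobase. AIMP1 stood at 1135 and AIMP2 at 2583 in parental cells.

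Among the 37 genes, 13 amino acids have a cytosolic and a mitochondrial enzyme of their own. Cysteine and phenylalanine are not counted, since CARS2 and FARS2 were left out by the choice of genes. Both partners rose for arginine and valine, and both fell for histidine and serine. The calls were opposite for alanine and tyrosine, only 1 of 2 partners was called for 6 amino acids, and neither was called for isoleucine. Among all genes 32.7% were higher and 34.2% lower, and calls in pairs of unrelated genes were not counted. These counts thus cannot be read as a trait of the partners. Where 1 partner passed and the other did not, the difference between them was not tested. Tyrosine showed the widest gap of these 13. YARS fell by 0.83 on the log2 scale and YARS2 rose by 0.19. The ratio of YARS to YARS2 normalized counts was 5.97 and 5.92 in parental and 3.00 and 2.87 in resistant libraries. For methionine the ratio of MARS to MARS2 went the other way, from 9.04 and 8.74 to 11.8 and 10.9. The ratio of EPRS to EARS2, enzymes that charge glutamate, was 7.96 and 8.16 in parental and 5.68 and 5.05 in resistant libraries, and that of EPRS to PARS2, which charge proline, 17.1 and 16.6 against 23.4 and 21.7. In each of these ratios the groups did not overlap (exact permutation test, two-sided p = 0.333, the smallest possible here). The same held for the ratio of every other pair. It held also for IARS to IARS2, where neither gene was called (3.02 and 2.98 in parental, 3.11 and 3.24 in resistant libraries). Single genes did not overlap in 82.1% of all cases, so the lack of overlap marks out none of these ratios.

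**Figure D3:**
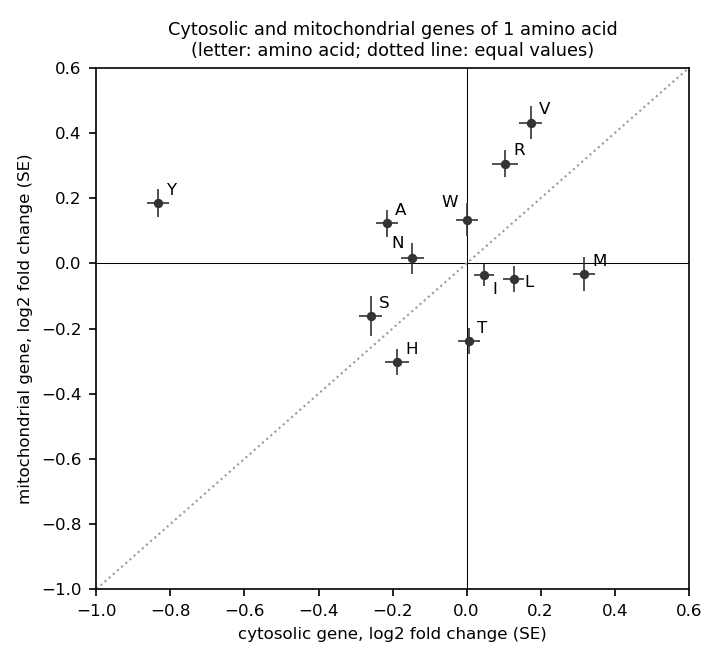
Log2 fold change of the mitochondrial enzyme (y axis) against that of the cytosolic enzyme (x axis) for 12 of the 13 amino acids, named by one-letter code, with bars for the SE (n = 2 libraries per group) and a dotted line of equal values. Tyrosine (Y) lies far to the left of the others at -0.83 and 0.19, and methionine (M) is the furthest right at 0.32 and -0.03.

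Genes of the amino acid response, with which several cytosolic synthetases are usually raised, were mostly lower in resistant cells. Of 32 listed genes outside the synthetases, 25 fell, 6 rose and 1 failed the test, with a median log2 fold change of -0.46. The share that fell was 78.1%, against 34.2% of all genes. PPP1R15A, which recruits a phosphatase to eIF2, fell from 9503 and 9494 to 3808 and 3767 normalized counts (-1.33, SE 0.03). TRIB3, a pseudokinase induced by ATF4, fell from 1616 and 1595 to 545 and 569 (-1.53, SE 0.06). In both genes the resistant libraries lay far below the parental ones. The amino acid transporter genes SLC38A2 (-0.69, SE 0.03) and SLC7A5 (-0.76, SE 0.03) and STC2 (-0.60, SE 0.03) fell as well, while SHMT2, of mitochondrial one-carbon metabolism, rose from 11364 and 11352 to 17242 and 17391 (0.61, SE 0.03). With the neighbour median subtracted, PPP1R15A stood at -0.88 and SHMT2 at 0.28. ATF4 itself, chosen after seeing its values, had 18787 and 18907 against 15897 and 16174 (-0.23, SE 0.03).

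Among the 12 synthetase genes of the amino acid response list (AARS, CARS, EPRS, GARS, IARS, LARS, MARS, NARS, SARS, TARS, WARS and YARS), 6 fell, 2 (LARS and MARS) rose and 4 did not pass, with a median log2 fold change of -0.08. The share called, 66.7%, was near the 66.9% of all genes, and 50% were lower against 34.2%. Their summed counts fell by 10.6%, from 0.287 and 0.286% to 0.264 and 0.260% of all normalized counts. Of the 8 other cytosolic or dual-compartment synthetase genes 5 rose, 2 (FARSA and HARS) fell and 1 (DARS) did not pass, with a median of 0.09. Of these, 87.5% were called, 62.5% higher and 25% lower, against 66.9%, 32.7% and 34.2% of all genes. The synthetase decreases of -0.95 to -0.15 were smaller than those of TRIB3 and PPP1R15A. Those of CARS (-0.95) and YARS (-0.83) were larger than those of SLC7A5 (-0.76), SLC38A2 (-0.69) and STC2 (-0.60). Of the other amino acid response genes, CHAC1 (-1.91), SLC7A11 (-1.61), VLDLR (-1.39), SESN2 (-1.07) and CEBPB (-0.96), picked by their values, also stood lower than CARS. The remaining genes of that list did not. With the neighbour median subtracted, CARS stood at -0.64 and YARS at -0.71, against -0.78 for SLC7A5, -0.71 for SLC38A2 and -0.71 for STC2. The difference between the 2 groups of synthetase genes was not tested.

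**Figure D4:**
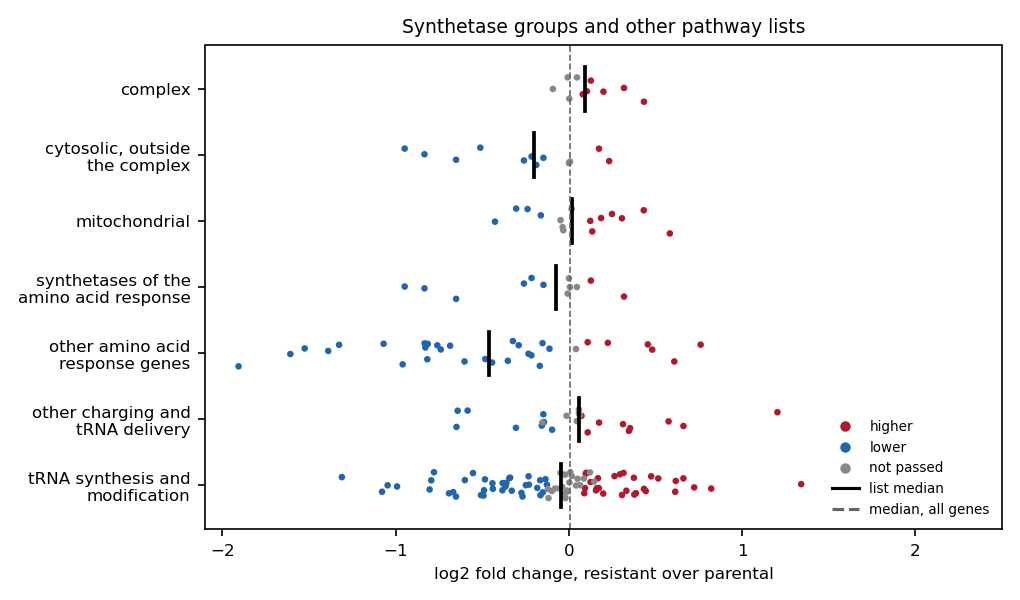
Log2 fold change, resistant over parental (x axis), of each gene (points; red higher, blue lower, grey not passed in limma) in synthetase groups and in other pathway lists, with a thick line at each list's median and a dashed line at the median of all genes tested. The amino acid response genes have a median of -0.46, the complex 0.09 and the other cytosolic enzymes -0.20.

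Genes of 2 further lists act beside the synthetases. The shares called were 73.9% for other charging and tRNA delivery and 75.6% for tRNA transcription, processing and modification, against 66.9% of all genes. Of 23 genes of other charging steps and tRNA delivery 9 rose, 8 fell and 6 stayed short of the threshold, with a median log2 fold change of 0.06. These shares, 39.1% higher and 34.8% lower, lay near the 32.7% and 34.2% of all genes. Besides GATB and EEF1E1, the mitochondrial elongation factor gene TSFM rose from 1886 and 1919 to 3042 and 2976 normalized counts (0.66, SE 0.04). PSTK, a kinase that prepares selenocysteine tRNA, rose from 301 and 306 to 661 and 742 (2.30-fold). DTD1, which removes D-amino acids from tRNA, fell (-0.58, SE 0.05), and EEF1B2, a subunit of elongation factor 1, rose (0.35, SE 0.03). With the neighbour median subtracted, DTD1 turned to higher (0.10, limma adjusted p = 0.0395), and TSFM stood at 0.17, PSTK at 0.52, EEF1B2 at 0.13 and EEF1E1 at -0.38.

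Of 86 genes of tRNA transcription, processing and modification 28 rose, 37 fell and 21 stayed short of the threshold, with a median log2 fold change of -0.04. The share that rose, 32.6%, was that of all genes (32.7%), 43% fell against 34.2%, and 38.4% passed with a change above 1.2-fold required against 37.1%. The tRNA splicing endonuclease genes TSEN54 (-1.31, SE 0.04) and TSEN34 (-0.69, SE 0.04) fell. WDR4, a subunit of the tRNA guanosine methyltransferase, fell by 0.80 on the log2 scale (SE 0.04), as did POLR3F (-0.78, SE 0.05), a subunit of RNA polymerase III, and the tRNA modification gene TP53RK (-0.67, SE 0.04). RPP25, a subunit of ribonuclease P, rose from 400 and 383 to 977 and 1009 (1.34, SE 0.07). With the neighbour median subtracted, TSEN54 stood at -0.15, POLR3F at -0.11 and WDR4 at -0.49, while RPP25 stood at 1.37.

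The level of a synthetase gene was also set beside that of its chromosomal neighbours, taken as the 10 tested genes on each side. EPRS and IARS2 lie together on chromosome 1, where the neighbours had a median log2 fold change of 1.28, yet neither gene passed (-0.01 and -0.04). With that median subtracted, EPRS stood at -1.28 and IARS2 at -1.31. GARS fell although its neighbours' median was 0.46, and stood at -1.11 with it subtracted. For FARSA the neighbours' median was -0.37, and the value with it subtracted was -0.14 (limma adjusted p = 0.00138). For CARS and YARS these medians were -0.30 and -0.12, and the values with them subtracted -0.64 and -0.71. SARS (-0.42), HARS (-0.29), NARS (-0.24) and VARS (0.36) stood further from 0 than before.

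Among genes that rose, MARS had neighbours with a median of 0.37, and with it subtracted its value was -0.05 (limma adjusted p = 0.160). LARS (0.03) likewise no longer passed. RARS (-0.15), WARS2 (-0.28) and YARS2 (-0.21) turned to lower than their neighbours, and SARS2 (0.22) turned to higher. QARS, EARS2 and VARS2 stayed higher, at 0.33, 0.51 and 0.28, and AIMP2, with a neighbour median of -0.31, stood at 0.51. In this setting 13 of the 37 genes were higher and 19 lower. The share of all genes called in this setting is not given here, so these counts cannot be set against it. The p-values take the neighbour median as known, and copy number was not measured here, so the part of the chromosomal surroundings in these results was not tested.

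**Figure D5:**
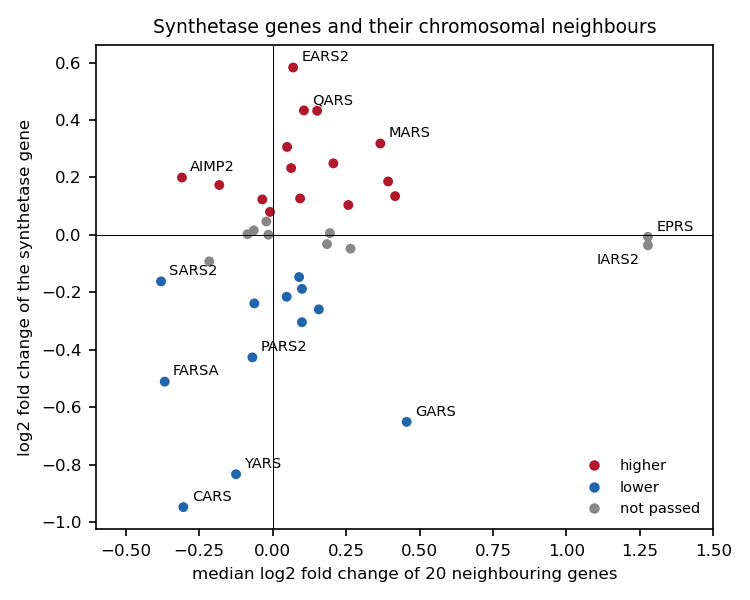
Log2 fold change of each of the 37 genes (y axis) against the median log2 fold change of up to 20 neighbouring genes on its chromosome (x axis), coloured by call (red higher, blue lower, grey not passed in limma). EPRS and IARS2 lie far to the right, at a neighbour median of 1.28, with values near 0, and GARS combines a neighbour median of 0.46 with a value of -0.65.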

How the data were processed

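Poly(A) RNA was sequenced in 4 libraries, grouped by their titles. The submitters' processing notes name GRCh38, DESeq2, featureCounts, STAR 2.5.2b, bcl2fastq 2.17 and Subread 1.5.2. The annotation and the strand are, in the sources used here, not given. The deposited signal columns are normalized counts: the authors divided each library's reads by its size factor, which the values show, since 100% are whole multiples of one step within 0.01. The log2 fold changes and p-values in the authors' deposited table were used only where named.

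Genes with at least 10 normalized counts in at least 2 libraries were kept (18330). The log2 of value plus 1 was fitted with limma 3.58.1 (eBayes with trend, R 4.3.3) on group alone, with Benjamini-Hochberg adjustment at 0.05. Alternatives included edgeR 4.0.16 and DESeq2 1.42.0 on recovered reads. On simulated data from the same means, limma recovered 80% of genes changed 1.2-fold and 94% of those changed 1.5-fold over 18250 genes. Every simulated gene had edgeR's common dispersion of 0.00057, and 50 genes were changed at each fold. The changed genes were drawn from those with a mean of at least 50 reads. The recovered shares hold for that setting alone, and recovery under a larger spread was not tested.

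All members but 1, which is not reported here by name, are named, with library values for the 12 largest called changes, their partners and members that did not pass, and up to 6 called genes of smallest adjusted p per other list. The members and lists were chosen with earlier results of these data known. Gene positions, overlaps and transcript lengths come from GENCODE 29 (GRCh38), promoters from RefSeq (GRCh38.p14).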

Additional observations from a re-analysis of the deposited data

How the results depend on the processing

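Of 27 called genes, 8 (CARS, EARS2, FARSA, GARS, PARS2, QARS, VARS2 and YARS) kept their calls in all 17 alternatives, and 22 did in all but 3 of them. These 3 were a required change above 1.2-fold, an edgeR dispersion fixed at 0.01 and the subtraction of the neighbour median. With either of the first pair, 3 genes were higher and 5 lower. Then 1 cytosolic gene was higher and 3 lower, 2 mitochondrial genes were higher and 1 lower, 1 complex gene was higher, and 0 other cytosolic genes were higher (also 0 at an unadjusted p below 0.05 in either setting) and 4 lower. With the neighbour median subtracted, 19 genes were lower, 8 of them mitochondrial and 2 of the complex, and the sign turned for AIMP1 (0.12), MARS (-0.049), RARS (-0.15), SARS2 (0.22), TARS (-0.19), WARS2 (-0.28) and YARS2 (-0.21). After the GC and length correction 1 complex gene (AIMP1) was lower, and the median over all 37 genes was -0.02 in place of 0.00. Leaving out 1 library gave 12 to 16 higher and 11 to 14 lower genes, and 0 to 1 lower gene of the complex, AIMP1 without resistant replicate 1. Pseudocounts of 0.5 and 10, a filter at 100, no filter, TMM scaling and edgeR changed no call of the 37. Groups share replicate numbers, but the deviations of same-numbered libraries had a correlation of -0.03 across genes, and nothing in the labels pairs them. With a replicate block 15 genes were higher and 12 lower. Of the alternatives, only the required 1.2-fold change has a share over all genes stated above. The counts in the other settings cannot be set against such a share. The 2 libraries per group limit every p-value, the resistant pair varied more than the parental pair, and changes below 1.2-fold rest on a spread that may be technical.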
